A study of Ovis aries with 2 samples.

Results

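The neural tube patterning factors SOX2, SOX1, SOX3, PAX6, PAX7, OLIG2, NKX6-1, IRX3, DBX1 and HES5 were followed in single cells of sheep embryos collected on day 16 of pregnancy (E16). The 10 genes were chosen by symbol, and each symbol named 1 of the 26478 features in the deposited matrices. Measurements came from 2 libraries of 3′ single-cell RNA-seq, 1 from the long-tailed Ujumqin sheep, which served as the control, and 1 from the Hulunbuir Short-tail sheep. The study's design gives n = 3 for each breed, but each breed has 1 library and no map from its cells to embryos, and the extraembryonic tissue had been cut away and red blood cells lysed before loading. With 1 library per breed and no replicate, no difference below was tested, and all intervals are 95% intervals that cover counting error only. The question was whether cells could be placed along the dorsal-ventral axis of the neural tube from the factors they held, alone or together.

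The neural tube is divided along its dorsal-ventral axis by transcription factors that progenitors switch on or off in response to Sonic hedgehog from the notochord and floor plate and to BMP and WNT signals from the roof plate. The SOXB1 genes SOX1, SOX2 and SOX3 mark neural progenitors in general, and PAX7 and PAX3 mark the dorsal part. PAX6, IRX3 and DBX1 were counted here as genes of the intermediate part. NKX6-1 and OLIG2 mark the ventral part, OLIG2 in the progenitors of motor neurons, and HES5 is a target of Notch that keeps progenitors undifferentiated. At the tail end of the embryo, SOX2 is also found in the bipotent cells that give rise to both spinal cord and somites, where FGF signalling holds back PAX6.

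A unique molecular identifier (UMI) marks 1 captured RNA molecule. Barcodes entered the analysis when they held 200 or more genes and when mitochondrial transcripts made up less than 10% of their UMIs. That left 14554 of 17059 barcodes in the Ujumqin library (median 9519 UMIs per cell) and 9583 of 10709 in the Hulunbuir library (median 11879 UMIs). The libraries differed in make-up: 5028 Ujumqin cells (34.5%), with 48.9% of that library's UMIs, fell in erythroid-like clusters, against 0 Hulunbuir cells, and clusters of low depth (median under 1/3 of the library's) held 40.9% and 17.2% of the cells. The libraries shared 61 barcode sequences, 50 of them among the kept cells.

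Of the 10 factors, SOX2, PAX6 and IRX3 were captured in numbers in both libraries, and the other 7 were at or close to 0. SOX2, the SOXB1 gene of progenitors, had 3650 UMIs in 869 Hulunbuir cells and 357 UMIs in 191 Ujumqin cells. This amounted to 28.4 UMIs per 1000000 UMIs of the library (CPM, 27.5 to 29.3) in the Hulunbuir library and 1.70 CPM (1.53 to 1.89) in the Ujumqin library. The other SOXB1 genes were almost absent, with 2 SOX1 UMIs and 1 SOX3 UMI in the Hulunbuir library and 0 and 2 in the Ujumqin library. Among the intermediate factors, IRX3 had 1454 UMIs in 831 Hulunbuir cells (11.3 CPM) and 374 UMIs in 231 Ujumqin cells (1.78 CPM), and PAX6 had 416 UMIs in 146 cells (3.23 CPM) and 57 UMIs in 44 cells (0.272 CPM). DBX1, the third intermediate factor, had no UMI in either library, which allows a level of up to 0.0233 CPM in the Hulunbuir library and 0.0143 CPM in the Ujumqin library.

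The ventral and dorsal factors were near the limit of detection. NKX6-1 had 21 UMIs in 19 Hulunbuir cells (0.163 CPM, 0.101 to 0.2495) and 3 UMIs in 3 Ujumqin cells. OLIG2 was seen as 1 UMI in 1 Hulunbuir cell and in 0 of 14554 Ujumqin cells, which allows a share of up to 0.0206% of the cells with a UMI. The dorsal factor PAX7 was found in 4 Hulunbuir and 3 Ujumqin cells, each with 1 UMI. HES5, the Notch target, was found in 2 Hulunbuir cells and in no Ujumqin cell. Too few cells held PAX7, OLIG2, DBX1 or HES5 to show a patterned domain that uses them in either library. Whether such domains were absent or missed was not tested.

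**Figure D1:**
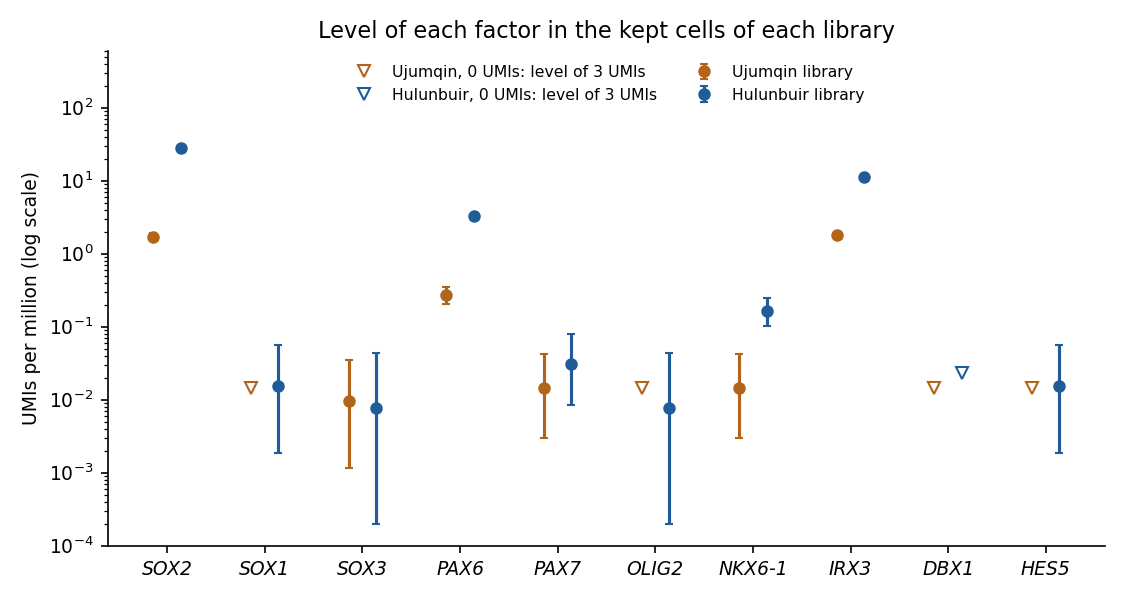
Level of the 10 factors in the kept cells of each library in CPM on a log axis. Points are levels with 95% Poisson intervals, and open triangles mark the level of 3 UMIs where a library had none. SOX2, PAX6, IRX3 and NKX6-1 were higher in the Hulunbuir library, and the other 6 factors lay below the 0.163 CPM of NKX6-1 in both.

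Endothelium-like cells, which should hold little neural RNA, served as the background for shares of cells with a UMI. In the Hulunbuir library SOX2 was found in 9.07% of all kept cells (8.5 to 9.66) and in 0.806% of 496 endothelium-like cells, although these were deeper (median 18464 UMIs). PAX6 was found in 1.52% of the kept cells against 0.403% of the endothelium-like cells. IRX3 was found in 8.67% against 5.04%, so that a good part of the IRX3 cells lay outside any neural population. In the Ujumqin library SOX2 was found in 1.31% of the kept cells and in 0 of 166 endothelium-like cells (median 28489 UMIs). PAX6 was found there in 0.302% of the kept cells and in 1 of the 166 endothelium-like cells (0.602%), and IRX3 in 1.59% against 5.42%. Neither share stood above that of the endothelium-like cells, but these were far deeper than the kept cells (median 9519 UMIs). For PAX6, 1 cell is too few to set a background. Whether the IRX3 of endothelium-like cells was background was not tested.

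SOX2, PAX6, IRX3 and NKX6-1 were the 4 of 10 members with at least 20 UMIs over both libraries, and 4 of these 4 were at least 2-fold higher in the Hulunbuir library. NKX6-1 reached that minimum only through its 21 Hulunbuir UMIs, so its call was close to fixed by the minimum, and without the highest Scrublet (doublet) scores 3 of 3 members counted. Of all 13476 features with as many UMIs, 45.1% were at least 2-fold higher there, with a median log2 ratio of 0.91. The log2 ratio was 4.06 (3.90 to 4.22) for SOX2, 3.57 (3.17 to 3.997) for PAX6, 3.51 (1.77 to 5.90) for NKX6-1 and 2.66 (2.50 to 2.83) for IRX3. Summed over the 10 factors, the level was 43.1 CPM in the Hulunbuir and 3.80 CPM in the Ujumqin library, a log2 ratio of 3.51 (3.40 to 3.61). Without the erythroid-like clusters the summed log2 ratio was 2.59 (2.48 to 2.70), the same 4 members were at least 2-fold higher, and the background was 19.5% with a median of 0.40. With each cell thinned to 1000 UMIs, SOX2 was found in 2.81% of 9067 Hulunbuir cells (2.48 to 3.17) and in 0.473% of 11209 Ujumqin cells (0.354 to 0.618), with 516 and 3345 shallower cells left out. Breed cannot be told apart from library, and fewer cells of a kind from less RNA per cell, in these totals.

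The cells of each library were clustered without the 10 factors and without the other neural tube genes. The factors could thus be read over clusters they had not shaped, although the rule that named the clusters did count them. In the Hulunbuir library 2 of 18 clusters held most of the SOX2. Cluster 12 had 231 cells, 211 of them with SOX2, at 436.0 CPM (412 to 460). Cluster 10 had 281 cells, 190 of them with SOX2, at 393.8 CPM (373 to 416). These levels lay close together, with a log2 ratio of cluster 10 over cluster 12 of -0.15 (-0.26 to -0.03). The next highest levels were 49.7 CPM in cluster 6 and 45.8 CPM in cluster 7. PAX6 separated the pair: it stood at 108.9 CPM (97.9 to 121) in cluster 10, with 108 cells, and at 0.68 CPM in cluster 12, with 2 cells. Cluster 10 alone held 86.8% of all PAX6 UMIs of the library.

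Cluster 10 was called neural progenitor-like with 4 markers other than the factors (FABP7, PTN, SFRP1 and ZIC2). The rule also required that no other list had more markers among the 10 leading genes. There only SOX2 and PAX6 counted for the neural list, against 1 marker each for neural crest, neuron and somite. The name of cluster 10 thus rested in part on the factors. All 14 neural progenitor markers other than the factors in the matrix were detected in cluster 10, at 1508 CPM in sum. Its leading genes were SOX2, PAX6, STMN2, SCUBE2, MAP7, CHL1, PYGM, PAX3, CDH6 and TFAP2B. Of 10 neural crest markers, 7 were also detected in it, at 109.5 CPM in sum, with FOXD3 and NGFR among those at 0, and their part in the values of this cluster was not tested. Cluster 12 was caudal progenitor-like by CDX2, CDX4, FGF8, FGF17 and WNT5B, with 9 of 10 such markers detected at 548 CPM in sum against 13.3 CPM in cluster 10. Its leading genes also began with SOX2 and included HES3, ZIC2 and CDH6. Clusters 6 and 7 were led by FGF8, CDX4, FGF17 and WNT5B as well, and cluster 7 was caudal progenitor-like while cluster 6 met the rule for no name. Neural progenitor-like cells made up 2.93% of the Hulunbuir cells (2.60 to 3.29), but the name depended on how finely the cells were split. At a clustering resolution of 0.5 in place of 1, 280 of the 281 cells stayed together in a cluster of 308 that was named cardiomyocyte-like, and the share under the neural name was 0. At resolution 1 the library had a separate cardiomyocyte-like cluster of 28 cells, cluster 18. Whether these were among the 308 was not tested. Of 9 cardiomyocyte markers, 8 were detected in cluster 10 itself, at 132.7 CPM in sum. The sum was 137.6 CPM in cluster 12, 60.3 CPM in cluster 6 and 71.0 CPM in cluster 7, so this level was not particular to cluster 10.

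IRX3 was highest in the same cluster as PAX6 but was spread far more widely. It stood at 113.1 CPM (102 to 125.1) in cluster 10, with 135 cells, and at 46.0 CPM (37.0 to 56.4) in the mesenchyme-like cluster 17 and 44.9 CPM (38.2 to 52.5) in the surface ectoderm-like cluster 11, 2 levels that did not differ beyond counting error. The mesenchyme-like cluster 4 had 32.1 CPM in 292 cells, more IRX3 cells than in any other Hulunbuir cluster, and PAX6 was at 0.34 CPM there. Of the IRX3 UMIs of the library, 25.8% were in cluster 10. NKX6-1 was also highest in cluster 10, with 13 of its 21 UMIs at 3.92 CPM (2.09 to 6.70), and the other UMIs were 2 in cluster 12 and 3 each in the mesenchyme-like clusters 1 and 2. Cluster 12 was second by level, at 0.68 CPM with an interval (0.0823 to 2.45) that overlapped that of cluster 10. Thus 3 of the 4 measured members had their highest level in cluster 10, PAX6 and IRX3 with intervals apart from the next cluster and NKX6-1 not. SOX2 had its highest in cluster 12, where its interval overlapped that of cluster 10. As the neural name of cluster 10 drew on SOX2 and PAX6, this count describes that cluster and is no support for its name.

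**Figure D2:**
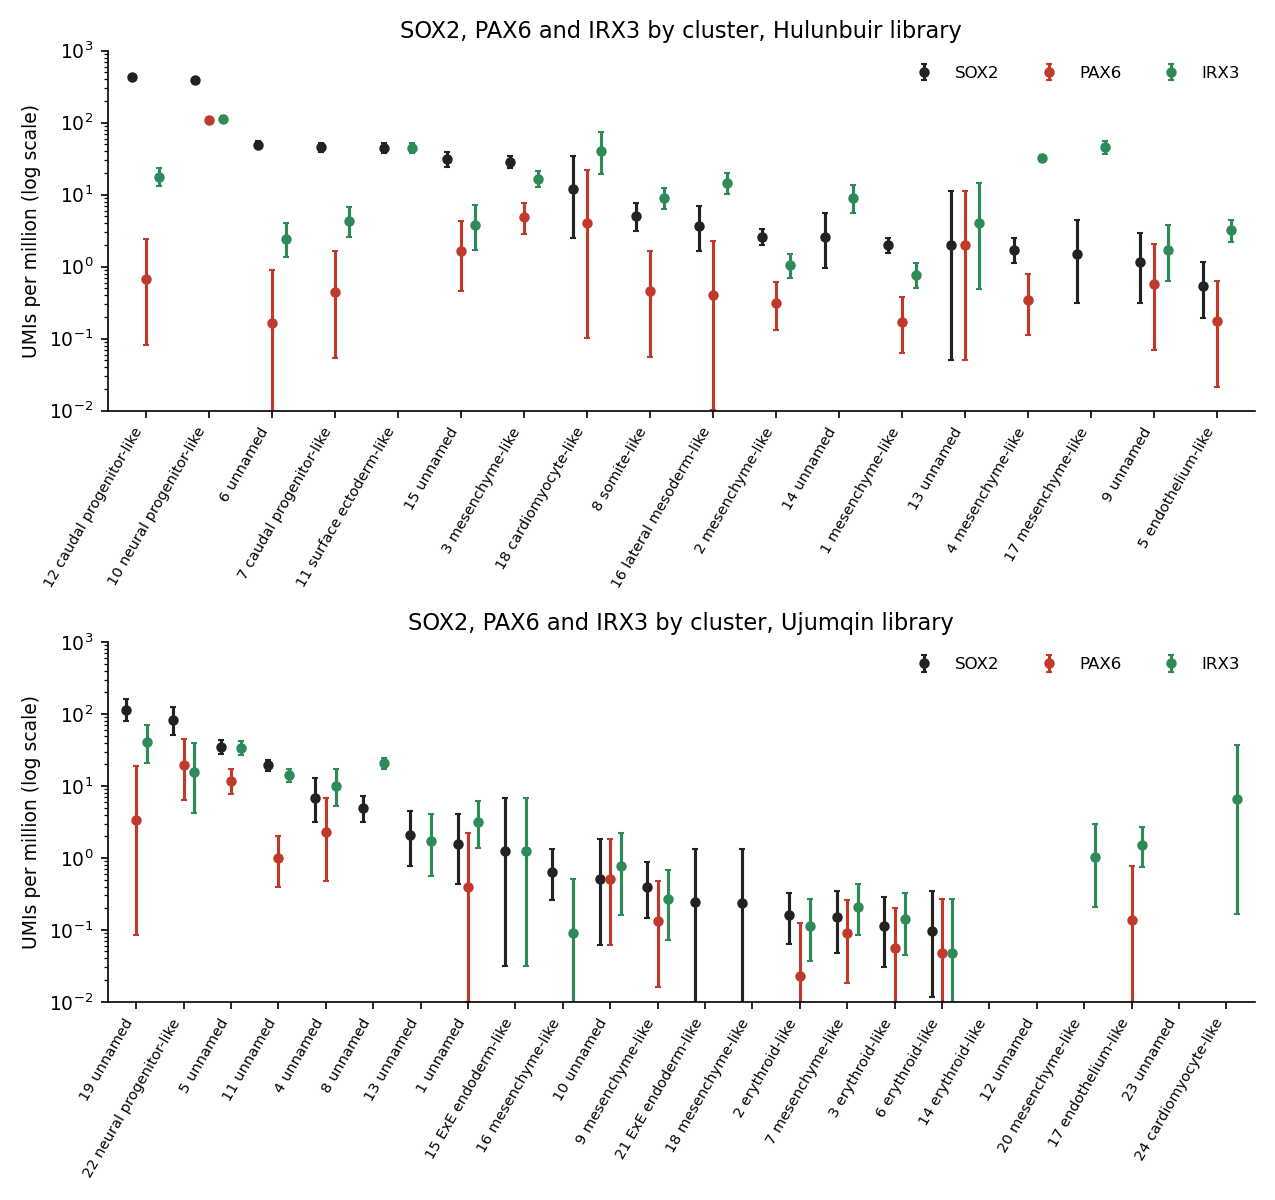
SOX2, PAX6 and IRX3 in every cluster of both libraries, in CPM on a log axis with 95% Poisson intervals. Clusters run from the highest SOX2 level to the lowest, and levels of 0 are not drawn. In the Hulunbuir library SOX2 stood at 436.0 and 393.8 CPM in clusters 12 and 10, PAX6 at 108.9 CPM in cluster 10, and IRX3 was spread over neural, surface ectoderm-like and mesenchyme-like clusters.

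In the Ujumqin library most cells with SOX2, PAX6 or IRX3 lay in clusters of low depth, but the SOX2 UMIs were shared about evenly with deeper clusters. Clusters of low depth held 125 of its 191 SOX2 cells, 30 of 44 PAX6 cells and 143 of 231 IRX3 cells, against 62 of 869 SOX2 cells in the Hulunbuir library. Of the UMIs they held 179 of 357 for SOX2 (50.1%), 38 of 57 for PAX6 and 229 of 374 for IRX3. SOX2 was highest in cluster 19, an unnamed cluster of 111 cells led by STMN2, SOX2 and CRABP1, at 114.8 CPM (79.5 to 160) from 34 UMIs. Cluster 22 followed with 81.4 CPM (50.4 to 124) from 21 UMIs, and the 2 intervals overlapped. Cluster 22 was the only Ujumqin cluster called neural progenitor-like, with 67 cells or 0.460% of the library (0.357 to 0.584). At resolution 0.5 all 67 cells fell in an erythroid-like cluster of 361 cells, and 62 of them fell in an erythroid-like cluster of 305 when both libraries were clustered together. Its median depth was 1115 UMIs, and histone genes filled much of its leading list. SOX2 itself was the only marker of that name among its 10 leading genes. A cluster of low depth without such a marker was given no name, so the name rested on SOX2. Cluster 22 also held 229 UMIs of erythroid markers, 888 CPM in sum, with 7 of 8 detected. The part of such RNA in its values was not tested. PAX6 was at 19.4 CPM (6.30 to 45.2) in cluster 22 from 5 UMIs and at 11.7 CPM (7.80 to 16.96) in cluster 5 from 28 UMIs. Cluster 5, an unnamed shallow cluster of 1028 cells led by CRABP1 and STMN2, held the largest number of SOX2 cells (68) and had IRX3 at 33.5 CPM. Among the Ujumqin clusters that were not of low depth, SOX2 was highest in the unnamed cluster 11, at 19.4 CPM (16.3 to 22.9) in cells with a median of 11162 UMIs, and its 137 SOX2 UMIs were the most of any Ujumqin cluster. Cluster 11 held all 14 neural progenitor markers other than the factors, at 989 CPM in sum, and 8 of them (NES, FABP7, CDH2, NCAM1, PTN, SFRP1, SFRP2 and ZIC2) counted for that name, against 5 in cluster 22 with 10 of 14 detected at 698 CPM. It stayed unnamed because its 10 leading genes held 2 somite markers and no neural progenitor marker. They began with CRABP1, COL2A1, CD24 and PAX3, and the somite list stood at 75.0 CPM in sum. Hulunbuir cluster 10, with 4 markers other than the factors, passed the same rule only through SOX2 and PAX6. The shares under the neural name, 2.93% and 0.460%, thus rested on factors followed here.

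Co-detection was then read as the share of cells with 1 factor that also held another. Of 146 Hulunbuir PAX6 cells, 129 had SOX2 (88.4%, 82.0 to 93.1), against 7.84% of the cells without PAX6, although the PAX6 cells were shallower (median 9584 against 11909 UMIs). The relation was not mutual, since 14.8% of the 869 SOX2 cells had PAX6. IRX3 was found in 81 of the 146 PAX6 cells (55.5%, 47.0 to 63.7) and in 7.95% of the cells without PAX6. Of the 831 IRX3 cells, 178 had SOX2 (21.4%) and 81 had PAX6 (9.75%), so most IRX3 cells held neither. NKX6-1, the ventral factor, came with SOX2 in 15 of its 19 cells, with PAX6 in 6 and with IRX3 in 6. Thinned to 5000 UMIs per cell, the share of PAX6 cells with SOX2 was 87.5% of 96 cells, and thinned to 2000 UMIs it was 64.2% of 53 cells (49.8 to 76.9), against 4.18% of the cells without PAX6. Thinned to 1000 UMIs it was 35.0% of 40 cells (20.6 to 51.7), against 2.50%, so the share itself depended on depth.

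In the Ujumqin library fewer cells bore on these pairs. SOX2 was found in 14 of 44 PAX6 cells (31.8%, 18.6 to 47.6), against 1.22% of the cells without PAX6, and IRX3 in 11 (25.0%). The Ujumqin PAX6 cells had a median of 4154 UMIs. Thinned to 2000 UMIs, 3 of 16 Ujumqin PAX6 cells held SOX2 (18.8%, 4.05 to 45.6), an interval that lay below that of the Hulunbuir cells at the same depth but rested on 3 cells. At 5000 UMIs 2 of 7 cells did (28.6%, 3.67 to 71.0), also below the Hulunbuir interval (79.2 to 93.4). At 1000 UMIs 1 of 13 did (7.69%, 0.195 to 36.0), and this interval overlapped the Hulunbuir one (20.6 to 51.7). Over all pairs of detected factors, 17 of 36 pairs were seen in at least 1 Hulunbuir cell and 5 of 15 in at least 1 Ujumqin cell. Of the Hulunbuir cells, 1540 held at least 1 factor, 160 held 2, 77 held 3 and 7 held 4 or more.

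**Figure D3:**
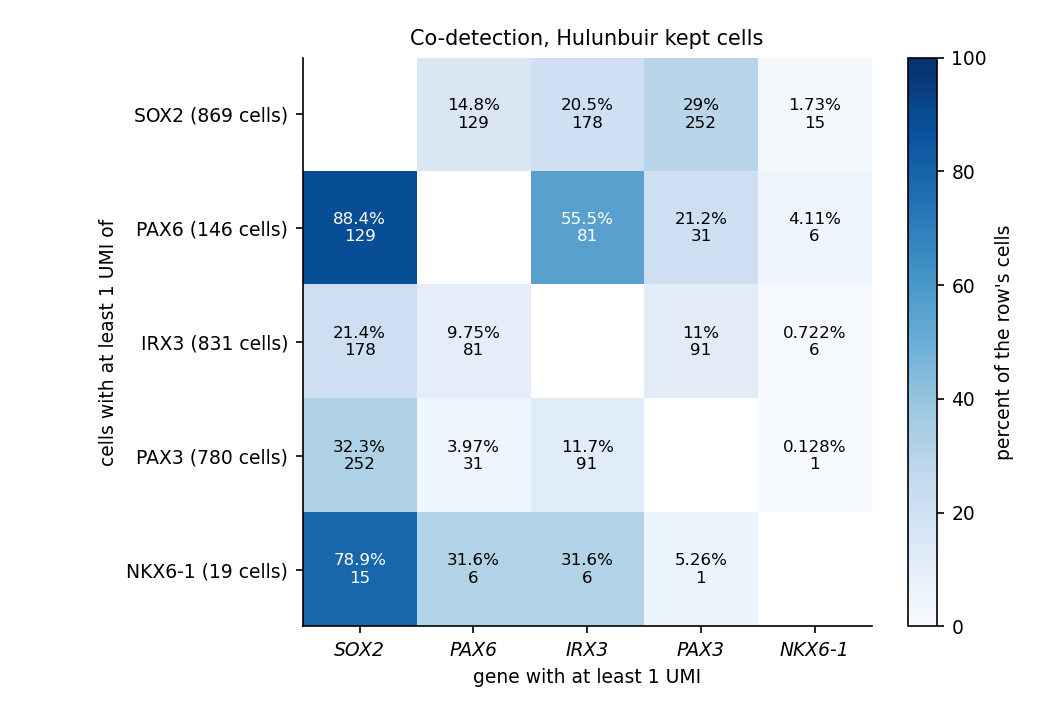
Co-detection in the Hulunbuir kept cells. Each field gives the percent of the row's cells, and below it the number, that also held at least 1 UMI of the column's gene, with PAX3 added as a dorsal gene. The PAX6 row was darkest under SOX2 (129 of 146 cells) and IRX3 (81), and NKX6-1 met PAX3 in 1 of 19 cells.

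The pairs planned to place cells, PAX7 with a ventral factor and OLIG2 with PAX6, could not be judged. Among the 281 neural progenitor-like Hulunbuir cells, PAX7 was found in 3 cells and NKX6-1 or OLIG2 in 12, and 0 of the 3 PAX7 cells held a ventral factor, a number too small to limit the share. The 1 OLIG2 cell held SOX2 and NKX6-1, the pair known from motor neuron progenitors, and no PAX6. All 3 PAX7 cells of the cluster held PAX3, and 1 of them held PAX6. The Ujumqin neural progenitor-like cluster had no PAX7, NKX6-1 or OLIG2 cell, so neither question could be asked there.

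PAX3, a dorsal factor close to PAX7, was captured well enough to be read for the dorsal end. It is also a somite marker and counted in the name of the somite-like Hulunbuir cluster 8. PAX3 alone thus does not fix a dorsal position. Within cluster 10 it was found in 84 of 281 cells at 74.5 CPM (65.5 to 84.4). It was found in 22 of 108 PAX6 cells (20.4%, 13.2 to 29.2) and in 62 of 173 cells without PAX6 (35.8%, 28.7 to 43.5), and these intervals overlapped slightly. IRX3 went the other way, in 76 of the 108 PAX6 cells (70.4%, 60.8 to 78.8) and in 59 of the 173 others (34.1%, 27.1 to 41.7). PAX3 and IRX3 were neither kept apart nor tied together, with PAX3 in 27.4% of the IRX3 cells and 32.2% of the others. None of the 12 NKX6-1 cells of the cluster held PAX3, which allows a share of up to 25.0%. PAX3 was found in 29.9% of all cells of the cluster. NKX6-1 met PAX6 in 5 of 108 and in 7 of 173 cells without PAX6 (4.63% and 4.05%), 2 shares that did not differ beyond counting error.

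The 190 SOX2 cells of cluster 10 were then grouped by any gene of 3 lists of dorsal, intermediate and ventral factors. An intermediate gene was found in 142 of the 190 cells (74.7%, 67.9 to 80.7), a dorsal gene in 81 (42.6%, 35.5 to 49.995) and a ventral gene in 19 (10.0%, 6.13 to 15.2). PAX6 was found in 106 of the cells and IRX3 in 105, and PAX6 had helped to name the cluster. The ventral list had only 28 UMIs in the whole cluster. The shares thus depend on which genes were captured, and a position on the axis was not tested. Dorsal and intermediate genes shared 56 cells, 74 cells were intermediate alone, 23 dorsal alone and 6 ventral alone, and intermediate and ventral genes shared 11. Dorsal and ventral genes without an intermediate one met in 1 cell, all 3 kinds met in 1, and 18 cells held none. The 211 SOX2 cells of cluster 12 had a different make-up at a similar depth (median 11408 against 9584 UMIs): 125 held a dorsal gene (59.2%, 52.3 to 65.9), 52 an intermediate gene (24.6%, 19.0 to 31.0) and 2 a ventral gene (0.948%, 0.115 to 3.38). Of the 219 UMIs of dorsal genes in all cells of cluster 12, PAX3, which is also a somite marker, gave 110. ZIC2, which is also expressed outside the dorsal tube, gave 99.

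In the 4 Hulunbuir clusters with the most SOX2 cells, which held 672 of the 869, PAX6 and the caudal genes were found in the SOX2 cells of different clusters. The name of cluster 10 drew on PAX6, and those of clusters 7 and 12 on CDX2, CDX4 and FGF8. The shares below thus describe these clusters and are no support for their names. Among the SOX2 cells of cluster 10, 106 of 190 held PAX6 and 105 held IRX3, while FGF8, the growth factor of the tail bud, was found in 4, and the caudal homeobox genes CDX2 and CDX4 in 5 and 3. Among the SOX2 cells of cluster 12, 2 of 211 held PAX6 and 40 held IRX3, while FGF8 was found in 130, CDX2 in 134 and CDX4 in 131. In cluster 6, 133 of 142 SOX2 cells held FGF8 and 24 held T, the mesodermal factor of the primitive streak, and 1 held PAX6. In cluster 7, 118 of 129 SOX2 cells held FGF8, 20 held T and 1 held PAX6. T was found in 10 of the SOX2 cells of cluster 12 and in 0 of those of cluster 10. The other 197 SOX2 cells were not parted in this way. In the shallow mesenchyme-like cluster 3, 7 of 60 SOX2 cells held PAX6, 17 CDX2 and 8 FGF8, and in the mesenchyme-like cluster 1 PAX6 and CDX2 were found in 4 of 21 each. In cluster 10, 84 SOX2 cells had no PAX6 UMI.

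**Figure D4:**
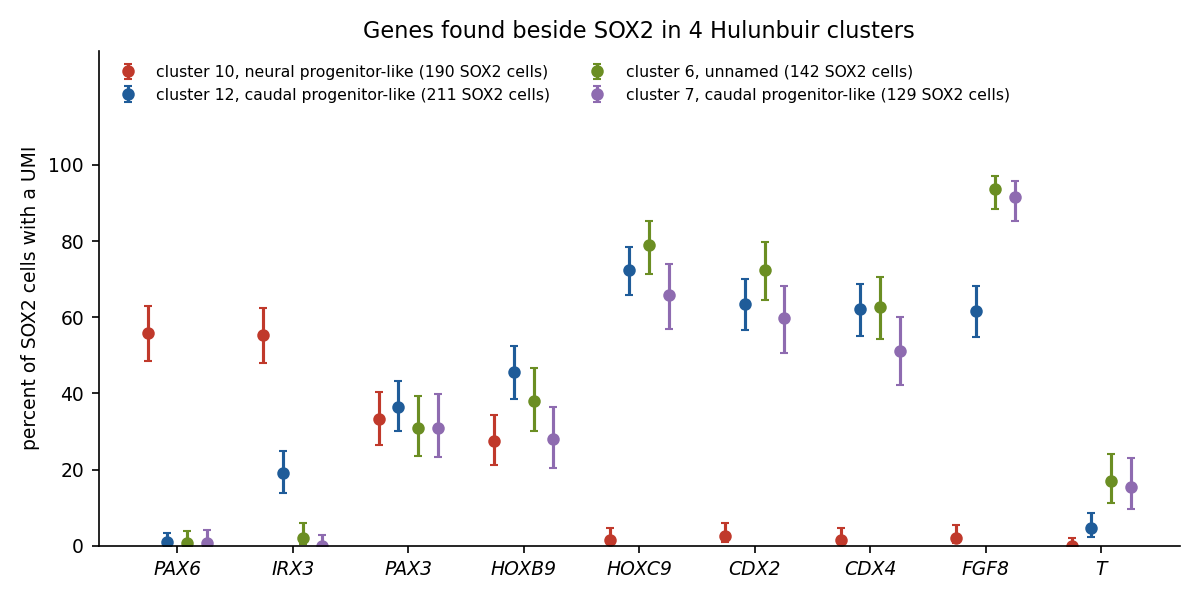
Percent of the SOX2 cells in 4 Hulunbuir clusters that held at least 1 UMI of a second gene, with exact 95% binomial intervals. PAX6 and IRX3 were found in 55.8% and 55.3% of the SOX2 cells of cluster 10, and HOXC9, CDX2, CDX4 and FGF8 in 2.63% of them or fewer, but in 51.2% or more of those of clusters 12, 6 and 7. PAX3 was found in 33.2% and 36.5% of those of clusters 10 and 12, and in 31.0% of those of cluster 6 and of cluster 7.

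Split by PAX6 and not by cluster, the Hulunbuir SOX2 cells with PAX6 (129 cells) and without it (740 cells) differed in the caudal genes. Of the 129 cells, 106 were cells of cluster 10, so this split was not independent of the clusters. Of the neuromesodermal and preneural list, 5 of 5 genes with at least 20 UMIs were at least 2-fold lower in the PAX6 cells, where 9.8% of 7991 features were (3.6% were at least 2-fold higher). FGF8 was at 28.6 CPM (21.2 to 37.9) with and 191.6 CPM (183 to 200) without PAX6, and WNT5B, a WNT ligand of the tail bud, at 26.3 against 189.9 CPM. Summed over the list, the level was 70.7 CPM with and 525 CPM without PAX6, a log2 ratio of -2.89 (-3.17 to -2.63). A few cells set this value: of the 121 UMIs of the list in the PAX6 cells, 63 came from 1 cell of cluster 12 with 1 PAX6 UMI. With at least 2 UMIs needed to call SOX2 and PAX6, the log2 ratio was -5.18 (-5.99 to -4.48). The PAX6 cells also had more SOX2, at 569 CPM (534 to 606) against 268.6 CPM (259 to 279), and more IRX3, at 135.0 CPM (118 to 154) against 19.0 CPM (16.4 to 21.9).

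Between the clusters themselves, 5.41% of 6678 features were at least 2-fold higher in cluster 10 than in cluster 12 and 4.87% at least 2-fold lower, with a median log2 ratio of -0.01. Of the intermediate list 3 of 3 measured genes were higher in cluster 10, PAX6 by a log2 ratio of 7.32 (5.46 to 10.4), IRX3 by 2.68 (2.26 to 3.12) and IRX5, its neighbour in the Iroquois family, by 3.55 (2.63 to 4.64). Neither of the 2 measured dorsal genes passed 2-fold: PAX3 had a log2 ratio of 0.99 and ZIC2 of -0.74. The ventral list had no gene with 20 UMIs, with 28 UMIs in cluster 10 and 2 in cluster 12 over its 11 genes. NKX6-1 gave 13 of the 28 and NKX6-2 gave 8. Of the neuromesodermal and preneural list 4 of 4 genes were lower in cluster 10, with a median log2 ratio of -5.35. The caudal name of cluster 12 drew on CDX2, CDX4, FGF8 and WNT5B of this list. The count thus describes these clusters and is no support for that name.

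The spinal HOX genes, which mark position along the trunk, were lower in cluster 10 for 6 of 10 measured genes and higher for 0, with a median log2 ratio of -2.63. The genes of the list did not differ by like amounts. HOXB9 was at 35.3 CPM (29.2 to 42.3) in cluster 10 and 62.2 CPM (53.5 to 71.9) in cluster 12, a log2 ratio of -0.82 that did not pass 2-fold. HOXA7 was at 18.1 against 148.1 CPM, HOXB7 at 9.05 against 42.5 CPM and HOXB4 at 9.05 against 16.6 CPM. HOXC9 and HOXA9, which were picked after their values were seen, were at 2.41 against 124.7 CPM and at 0.60 against 75.8 CPM. Cluster 10 thus held HOXB9 in 57 cells but HOXC9 in 7, and in cluster 12 the numbers were 102 and 162. Of the hindbrain list only HOXA2 was measured, at 24.1 CPM in cluster 10 and 14.95 CPM in cluster 12, and the 12 genes of the head neural plate had 17 UMIs in cluster 10 and 1 in cluster 12 in sum.

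**Figure D5:**
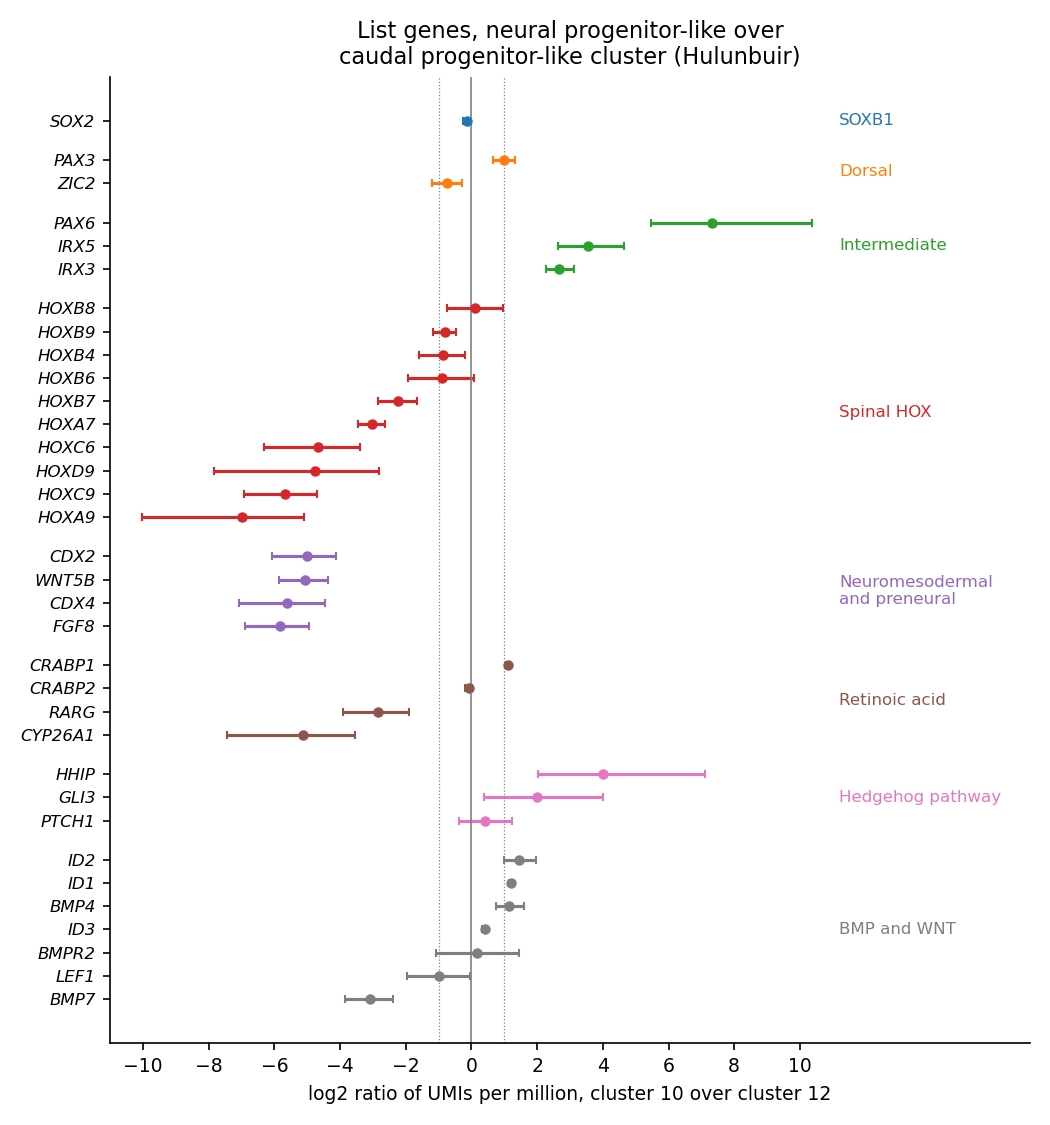
Log2 ratio of CPM in cluster 10 over cluster 12 for the list genes with at least 20 UMIs, with 95% intervals of the ratio. Dotted lines mark 2-fold, and RARB, with 0 UMIs in cluster 12, is not drawn. The intermediate genes lay to the right, all neuromesodermal and preneural genes lay beyond -5, and the spinal HOX genes ran from near 0 for HOXB8 to -6.97 for HOXA9.

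The signalling lists moved in part between the clusters. Of the Hedgehog pathway 2 of 3 measured genes were higher in cluster 10. HHIP, which binds the ligand and is itself a target of the pathway, was at 10.9 against 0.68 CPM, and GLI3 at 5.43 against 1.36 CPM. HHIP and GLI3 reached the 20 UMIs mainly through cluster 10, so a call as lower was hardly open to them. PTCH1, the receptor and also a target, was at 10.9 CPM (7.60 to 15.03) against 8.16 CPM (5.23 to 12.1), values that did not differ beyond counting error. Of the BMP and WNT list 3 of 7 measured genes were higher and 1 was lower: ID1 and ID2, targets of BMP, were at 1267 against 545 CPM and 45.8 against 16.6 CPM, BMP4 was at 51.6 against 23.1 CPM, and BMP7 was lower at 5.73 against 48.2 CPM. The split of the SOX2 cells by PAX6 went the other way for this list. There 0 of 10 measured genes were higher with PAX6 and 6 were lower, where 3.6% and 9.8% of all features were. Between the clusters, 2 of 5 genes of the retinoic acid list were higher in cluster 10 and 2 lower. CRABP1 was higher at 2094 against 970 CPM. RARB, a receptor gene induced by retinoic acid, had 21 UMIs in cluster 10 and 0 in cluster 12, at least 6.21-fold higher against 3 UMIs in cluster 12, but it reached the 20 UMIs only through cluster 10 and could not have been called lower. RARG was lower at 3.32 against 23.8 CPM, and CYP26A1, which breaks down retinoic acid and was picked after its values were seen, was lower at 0.90 against 31.6 CPM.

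Neuronal differentiation could be read from few genes only. Of 13 Notch and proneural genes 4 were measured. The Notch ligands DLL1, at 17.8 against 37.0 CPM, and DLL3, at 8.14 against 31.9 CPM, were lower in cluster 10. JAG1 did not pass 2-fold. HES1 passed 2-fold upward, at 4.52 against 1.70 CPM on 15 and 5 UMIs. These counts only just reached the minimum of UMIs, mainly through cluster 10, so a call as lower was hardly open to HES1. They are too few to set its levels apart beyond counting error. Of 16 neuron genes 2 were measured and 9 had no UMI in either cluster, too few to judge how far neurons had formed. STMN2 was found in 209 of the 281 cells of cluster 10. STMN2, a tubulin-binding protein of growing neurites, was at 545 CPM (520 to 571) in cluster 10 and 211.0 CPM (195 to 228) in cluster 12, while ISL1, of early motor and sensory neurons, had 8 and 0 UMIs.

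Over the 41 clusters of both libraries with at least 50 cells, the levels of SOX2, PAX6 and IRX3 were compared with those of 2696 genes, as a description over points that share 2 libraries and differ in depth. The genes most like SOX2 were SLC2A5 (Pearson r = 0.83), CRABP1 (0.82) and STMN2 (0.81). Those most like PAX6 were SOX2 (0.68), STMN2 (0.66) and IRX3 (0.58), so its closest partners included the 2 other measured factors. Those most like IRX3 were CRABP1 (0.81), STMN2 (0.80) and CENPV (0.79), with SOX2 at 0.73. NKX6-1 and the other members had too few UMIs to be compared in this way.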

How the data were processed

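The authors prepared 10x Chromium 3′ v3 libraries and deposited matrices of raw UMI counts per gene and barcode; the file headers name Cell Ranger 5.0.0 and the submitters' notes 3.1.0, with the Rambouillet v1.0 reference. Counts were used as deposited. The members and gene lists were chosen with earlier results of these data known. Cells were clustered per library (Scanpy 1.11.5, leidenalg 0.10.2; 2000 variable genes without the members and listed neural tube genes, 30 components, 20 neighbours, Leiden resolution 1) and named from marker lists. A name needed at least 3 markers that were no member, and no other list with more markers among the 10 leading genes, where members counted. Levels are summed UMIs as CPM with exact Poisson intervals, shares carry exact binomial intervals, and ratios conditional exact intervals. A ratio counted as called at 2-fold with at least 20 UMIs. A count of 0 was limited at 3 UMIs or cells. Doublets were kept, and removing the highest Scrublet scores was 1 alternative. Free RNA was not modelled. GBX2, ELAVL4, TUBB3, LHX2, NHLH1, HOXC8 and GAS1 were not analysed here. The fold, interval and thinning code was tested on simulated data.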

Additional observations from a re-analysis of the deposited data

Results flagged for a closer look

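SOX2 and IRX3 were also found in barcodes that the cell filter left out and that no comparison used, above the level that a count of 0 allows (0.894 CPM in the Ujumqin and 1.10 CPM in the Hulunbuir library). In the 2505 Ujumqin barcodes left out, SOX2 stood at 10.7 CPM (7.51 to 14.8) from 36 UMIs in 22 barcodes, above the 1.70 CPM of the kept cells, and IRX3 stood at 3.58 CPM from 12 UMIs. In the 1126 Hulunbuir barcodes left out, SOX2 stood at 15.4 CPM from 42 UMIs in 27 barcodes, below the 28.4 CPM of the kept cells, and IRX3 stood at 7.32 CPM from 20 UMIs. No explanation was tested.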

How the results depend on the processing

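No paired analysis was possible because each breed has 1 library and the labels carry no replicate numbers. Over 8 results and 56 alternatives, 34 values stayed within the main value's counting interval, or within 1.5 times for counts, 22 moved and 0 reversed; the causes were not tested. The summed log2 ratio of the factors between libraries ran from 3.42 to 3.61 under 4 alternatives, and was 2.22 as a mean of the cells' CPM and 2.59 without erythroid-like clusters. With no minimum of UMIs, 8 of 10 factors counted as at least 2-fold higher in the Hulunbuir library. The share of Hulunbuir cells called neural progenitor-like was 2.46% with at least 500 genes, 2.11% with no filter, 2.50% without the highest Scrublet scores, 3.34% with both libraries clustered together and 0 at resolution 0.5, where 0 factors were highest under that name. The Ujumqin share, and the number of factors highest under that name, were 0 with at least 500 genes, with no filter and at resolution 0.5, and 0.900% and 0 with the neural tube genes used for clustering. With both libraries clustered together the Ujumqin share was 0.467% (68 cells), but 62 of the 67 cells first called so were then erythroid-like, so these were mostly other cells. The 4 results on PAX7 and OLIG2 pairs are not counted above: they were 0 under all 48 alternatives, 30 of them with no PAX7 or OLIG2 cell to ask, on 4 PAX7 cells at most, and say nothing of stability. Alternatives chosen after seeing the data moved the share of PAX6 cells with SOX2 to 35.0% and 64.2% (thinned to 1000 and 2000 UMIs) and 93.1% (without clusters of low depth). They moved the log2 ratio of the neuromesodermal and preneural list to -5.22 (thinned to 5000 UMIs) and -5.18 (at least 2 UMIs), and at 1000 and 2000 UMIs the PAX6 cells held none of the list and gave no ratio.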
